A study of Sus scrofa with 2 samples.

Results

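Carriers of nutrients and ions were examined in the endometrium of pregnant Yorkshire pigs. They are genes of the solute carrier (SLC) superfamily, together with the prostaglandin carrier SLCO2A1. By the kind of substance they move and not by a measured value, 44 of them were listed by name. The choice was made with earlier results of these data known. Of the 44, 31 had at least 1 row in the deposited table whose RefSeq accession carried the symbol of the gene, out of 11063 genes with such a row. The other 13 had no matched row and were not analysed here. They are SLC2A1, SLC2A3, SLC1A4, SLC7A5, SLC6A6, SLC6A14, SLC38A4, SLC16A3, SLC11A2, SLC30A1, SLC39A8, SLC27A4 and SLC20A1. Both samples (YK18) are whole endometrium taken from Yorkshire females 18 days into pregnancy, after artificial insemination and flushing of the uterine horns with saline. Each of 2 pigs gave 1 RNA-seq library, called replicate 1 and replicate 2. No other condition was analysed here, so a difference between the libraries is a difference between 2 pigs, with no replicate check.

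The pig conceptus does not invade the uterus. Until the placenta is established it lives on what the uterine epithelium secretes and lets through, the histotroph. Solute carriers set much of this supply. Those of the SLC2 family let glucose pass down its gradient and SLC5A1 pulls it in with sodium, the SLC1, SLC6, SLC7 and SLC38 families move amino acids, the SLC16 family moves lactate and pyruvate with protons, and the SLC11, SLC30, SLC39 and SLC40 families move metals. The sodium gradient that many of them use is kept up by the sodium pump.

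Levels are in RPKM (reads per kilobase of transcript and per 1000000 reads), as deposited, with the rows of a gene summed. The libraries held 7466979 and 7023108 reads, as worked out from the steps in which the RPKM values of low transcripts rise. Markers of the tissue were present, though not all of them. The epithelial markers EPCAM and CDH1 were at 5106 and 4834 RPKM in replicate 1 and at 5128 and 3961 RPKM in replicate 2, and the stromal collagen COL3A1 was at 67098 and 42857 RPKM. Of the other stromal markers with a row, LUM was at 2122 and 1224 RPKM and DCN at 211 and 273 RPKM. VIM was low, at 19.5 and 24.9 RPKM, and COL1A2 had 1 read in replicate 1 and was listed at 0 in replicate 2. COL3A1 and LUM were thus higher in replicate 1, and DCN and VIM in replicate 2. The epithelial keratin KRT8 was listed at 0 in both libraries. Skeletal muscle markers stood out in replicate 1, where the 12 with a row summed to 680.2 RPKM against 33.3 RPKM in replicate 2. KRT8 and the ferritin chains FTL and FTH1 are abundant in such tissue, and a gene at 0 is therefore described only as listed at 0. In bulk tissue, fewer cells of a type and less RNA per cell cannot be told apart.

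Of the 31 carriers with a row, 22 were above 0 in both libraries, 2 in a single library and 7 were listed at 0 in both. At 1 RPKM or more in both libraries were 19 of them, 61.3%, where 54.7% of all 11063 genes were. A gap divided the carriers, and it was wider in replicate 2 than in replicate 1. At 50 RPKM or more in both libraries were 12 carriers, by the mean from SLC38A2 to SLC38A1. The lowest of them was SLC7A2 at 71.3 RPKM in replicate 1 and SLC16A1 at 106.7 RPKM in replicate 2. The next carrier, SLC2A2, was at 20.3 and 14.4 RPKM, and SLC12A2 followed at 6.35 and 10.7 RPKM. The limit of 50 RPKM lies in this gap. It was reached by 11 of the 22 carriers with 1 row and 1 of the 9 with several rows. Over all genes it was reached by 35.9% of those with 1 row and 4.97% of those with several rows. Among carriers above 0 in both libraries the median was 90.1 and 106.8 RPKM in replicates 1 and 2, and over all 6985 genes above 0 in both libraries it was 33.3 and 36.7 RPKM.

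**Figure D1:**
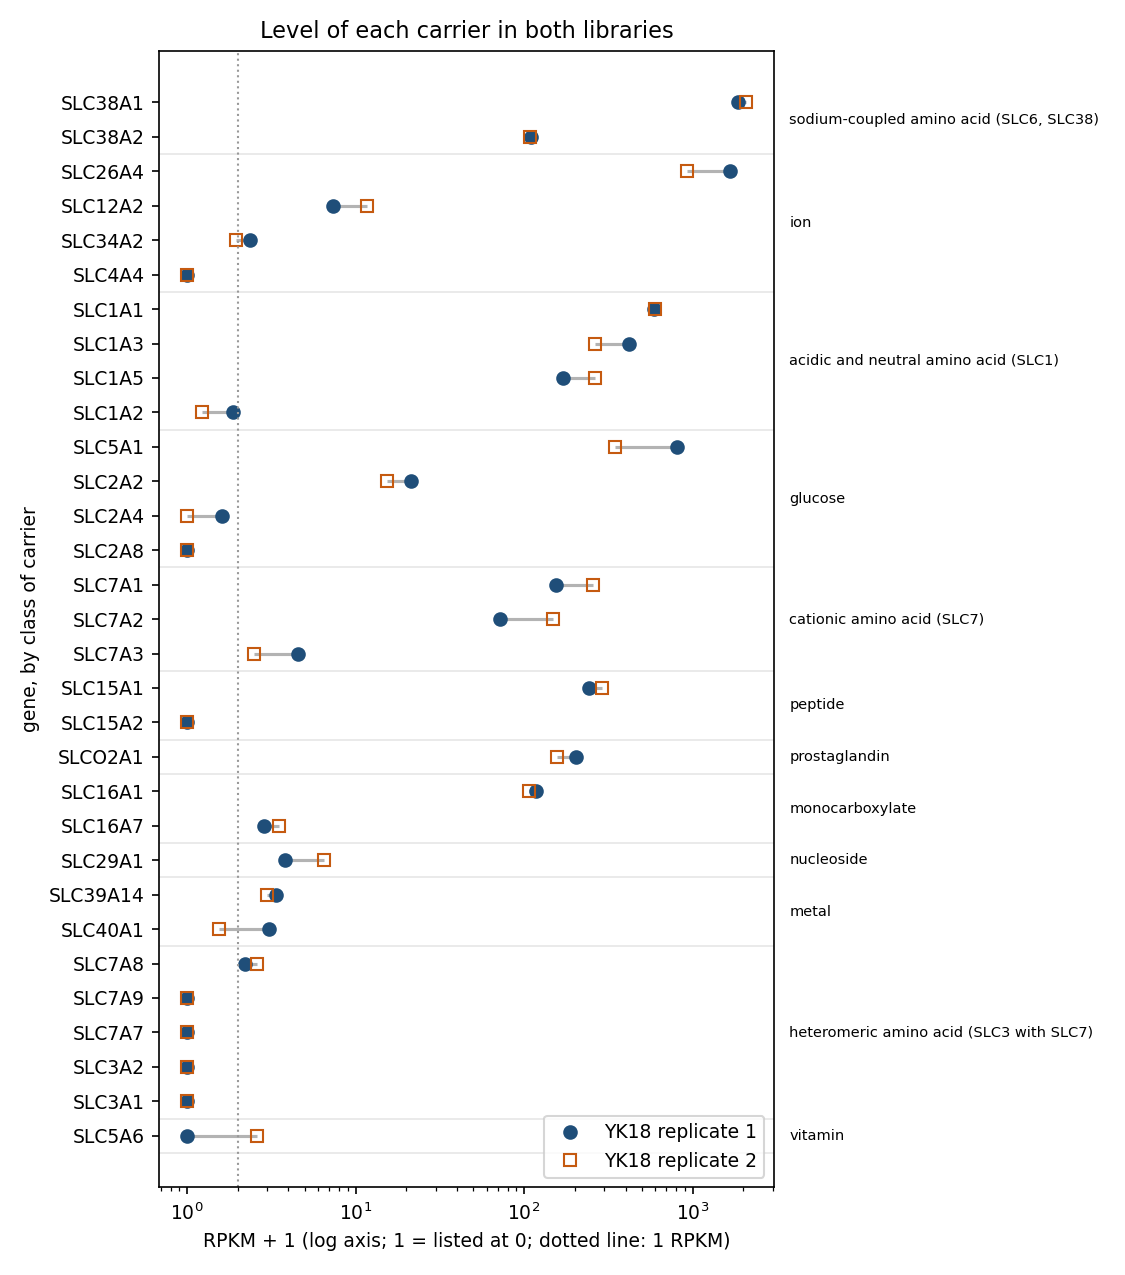
Level of the 31 carriers with a row, as RPKM + 1 on a log axis, grouped by class of carrier, with a filled circle for YK18 replicate 1 and an open square for replicate 2. The 12 highest genes lie above 50 RPKM in both libraries, the next is SLC2A2 at 20.3 and 14.4 RPKM, and 7 genes are listed at 0 in both.

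The share of amino acid carriers in the summed level differed between the pigs and, to a lesser extent, between the scales. In RPKM the 4 classes of amino acid carriers together were at 3377 and 3709 RPKM in replicates 1 and 2, which is 52.3% and 66.6% of the sum over all 31 carriers. In reads per 1000000, with no division by length, it was 45.8% and 61.5%. Sums by class cover only members with a row. These were 2 of 5 sodium-coupled, 4 of 5 ion, 4 of 5 SLC1 and 4 of 6 glucose carriers. The sodium-coupled SLC38 carriers were at 2070 ± 149 RPKM (SD, n = 2) and the ion carriers at 1306 ± 527 RPKM. The SLC1 carriers were at 1155 ± 38.4 RPKM and the glucose carriers at 592 ± 329 RPKM. SLC38A1 made up 94.5% and 95.1% of its class in replicates 1 and 2, SLC26A4 99.5% and 98.8%, and SLC5A1 97.46% and 95.99%. In the SLC1 class the highest gene, SLC1A1, made up 53.3% in replicate 2. Apart from the SLC1 class, the order of these classes is thus mainly one of single genes. The sodium-coupled carriers were first in both libraries in RPKM, but in reads per 1000000 they took the fourth place in replicate 1, at 206, and the third in replicate 2, at 225. On that scale the ion carriers led replicate 1, at 431.6, and the SLC1 carriers replicate 2, at 398. In RPKM the ion carriers and the SLC1 carriers changed places, with sums of 1679 and 1182 RPKM in replicate 1 and of 934 and 1128 RPKM in replicate 2. Lactate and pyruvate carriers, 2 of 3 with a row, were lower, at 119 and 109 RPKM. Of these sums SLC16A1 made up 98.4% and 97.7%. The classes of nucleoside and metal carriers were each below 6 RPKM in both libraries, and 2 of 5 metal carriers had a row.

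**Figure D2:**
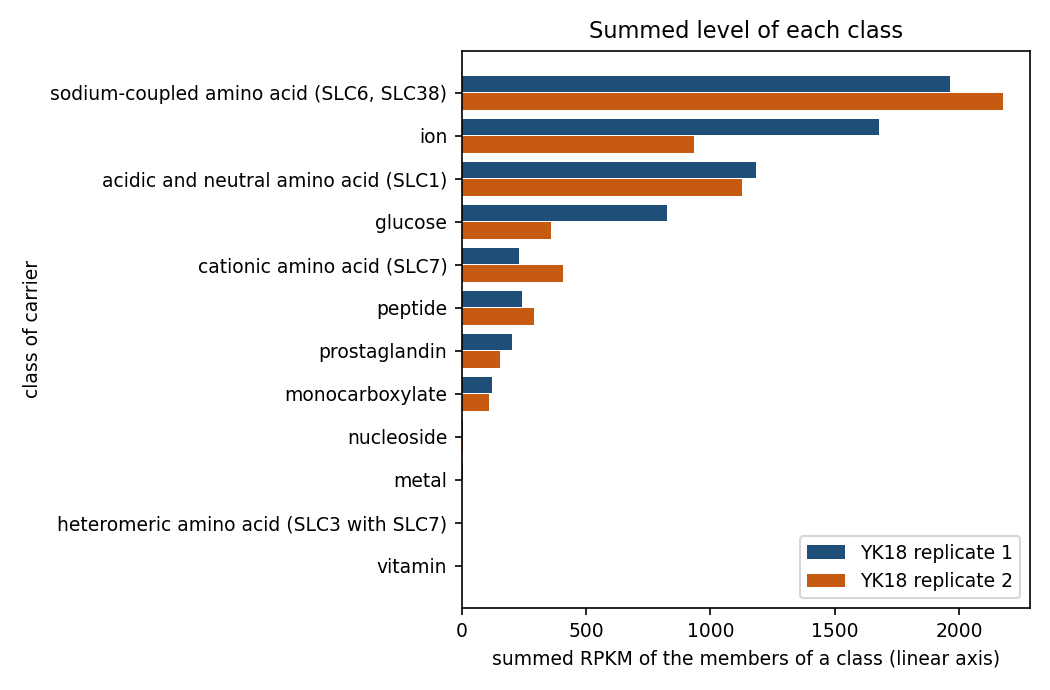
Summed RPKM of the members with a row in each class of carrier on a linear axis, with a bar for each YK18 library. The sodium-coupled amino acid class is highest in both on this scale, and the ion and glucose classes are the ones with the largest difference between the libraries, at 1679 and 934 RPKM and at 825 and 359 RPKM.

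SLC38A1, a sodium-coupled carrier of glutamine and other small neutral amino acids, was the highest carrier in RPKM. It was at 1856 and 2068 RPKM in replicates 1 and 2, from 1289 and 1351 reads, a ratio of 1.11 (95% exact binomial confidence interval 1.03 to 1.20). It stood at percentile 96.5 and 97.0 of the genes above 0 in both libraries. Its relative SLC38A2, which moves a similar set of amino acids, was at 108.9 and 106.9 RPKM, so that SLC38A1 was 17.0-fold and 19.3-fold higher in RPKM in the same libraries. In reads, which were divided by 93 nt for SLC38A1 and 305 nt for SLC38A2, it was 5.20-fold and 5.90-fold higher. SLC38A2 was also among the steadiest carriers, with a ratio of replicate 2 to replicate 1 of 0.982 and an interval of 0.817 to 1.18. Such intervals are computed on the reads of the libraries and cover counting error only.

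In the SLC1 family, SLC1A1 takes up glutamate and aspartate in epithelia. It was at 591 and 601 RPKM in replicates 1 and 2, a ratio of 1.02 (interval 0.945 to 1.09), and was nearly level between the pigs. SLC1A3, a glutamate carrier best known from glia, was at 420.4 and 264 RPKM. SLC1A5, a carrier of glutamine and other neutral amino acids, was at 169.5 and 263 RPKM as the sum of 2 rows of nearly equal level. With the highest row alone its mean level was 108.2 RPKM, where the sum was 216 RPKM, and the intervals of the rows taken singly, 1.37 to 1.84 and 1.31 to 1.75, also lay above 1. SLC1A3 was thus higher in replicate 1 and SLC1A5 in replicate 2, and the counting intervals of their ratios, 0.556 to 0.707 and 1.40 to 1.72, lie on opposite sides of 1. SLC1A2, the main glutamate carrier of the brain, was at 0.880 and 0.234 RPKM, from 4 reads and 1 read.

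The cationic amino acid carriers SLC7A1 and SLC7A2 bring in arginine, lysine and ornithine. SLC7A1 was at 154 and 256 RPKM in replicates 1 and 2, and SLC7A2 was at 71.3 and 147.5 RPKM. Both were higher in replicate 2, with ratios of 1.66 (interval 1.38 to 1.99) and 2.07 (1.55 to 2.78). The third member, SLC7A3, was at 3.56 and 1.51 RPKM, from 5 and 2 reads, and its interval, 0.0405 to 2.60, holds 1. SLC7A1 was 2.16-fold and 1.73-fold above SLC7A2 within the same library. Of the enzymes that use arginine or its product ornithine, ODC1, which makes putrescine from ornithine, was at 1082 and 1769 RPKM and NOS3, which makes nitric oxide from arginine, at 181 and 215 RPKM. MTOR, the kinase through which amino acids drive protein synthesis, was at 1623 and 1387 RPKM. In the list of 12 genes of amino acid sensing and stress control, 9 had a row, 7 had a mean of at least 1 RPKM, and none of the 7 differed at least 2-fold between the libraries. Their median log2 ratio was 0.25, with 0.07 over all genes.

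Little can be read of the heteromeric carriers here, since 4 of the 5 with a row were listed at 0 and SLC7A5 had no matched row. They pair a heavy chain, SLC3A1 or SLC3A2, with a light chain of the SLC7 family that carries the amino acid. Both heavy chains and the light chains SLC7A7 and SLC7A9 were listed at 0 in both libraries. SLC7A8, a light chain that exchanges neutral amino acids, was at 1.21 and 1.60 RPKM, from 4 and 5 reads. SLC7A7 has 5 rows in the table, all at 0.

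Among glucose carriers the sodium-coupled SLC5A1 stood far above the rest that had a row. It was at 804 and 345 RPKM in replicates 1 and 2, from 1543 and 622 reads. SLC2A2, a carrier of low affinity best known from liver and pancreatic islets, was at 20.3 and 14.4 RPKM, from 27 and 18 reads. SLC5A1 was thus 39.6-fold and 23.9-fold above SLC2A2 in RPKM in the same library, and 57.1-fold and 34.6-fold in reads. SLC2A4, the insulin-responsive carrier of muscle and fat, had 1 read in replicate 1 and was listed at 0 in replicate 2. SLC2A8 was listed at 0 in all of its 3 rows. The widely used carriers SLC2A1 and SLC2A3 are among the genes without a matched row, so this order covers only part of the family.

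SLC5A1 differed most between the pigs among carriers with a mean of at least 20 reads. It was 2.33-fold higher in replicate 1, with a ratio of replicate 2 to replicate 1 of 0.429 and a counting interval of 0.390 to 0.471. ATP1B1, a subunit of the sodium pump that keeps up its gradient, was at 825 and 581 RPKM. The 6 epithelial markers with a row summed to 11970 and 10845 RPKM in replicates 1 and 2, with KRT8 listed at 0. Of the 12 skeletal muscle markers, all 8 with a mean of 1 RPKM or more were at least 2-fold higher in replicate 1. Of all genes with such a mean, 3.17% were. The 12 had 598 reads against 12, and TNNT3, ATP2A1 and MYOZ1 were listed at 0 in both libraries. The 8 trophectoderm markers summed to 733 and 116 RPKM. Most of that sum was IFNG, which pig trophoblast secretes around this time, at 682 and 89.1 RPKM, while GATA3 and ELF5 were listed at 0. These markers did not all go the same way. Of the 5 with a mean of at least 1 RPKM, 3 were higher in replicate 1 and 2 in replicate 2. CYP17A1 was at 31.2 and 9.59 RPKM and TFAP2C at 17.5 and 14.1 RPKM. CYP19A1 was listed at 0 in replicate 1 and was at 2.05 RPKM, from 3 reads, in replicate 2. The part of these cell types in the difference of SLC5A1 was not tested.

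Lactate and pyruvate pass through SLC16A1, SLC16A3 and SLC16A7. SLC16A1 was at 117.5 and 106.7 RPKM in replicates 1 and 2, and the ratio of 0.908 had an interval of 0.774 to 1.06. SLC16A7 was at 1.88 and 2.50 RPKM, from 4 and 5 reads, so that SLC16A1 was 62.5-fold and 42.7-fold higher. BSG, the chaperone that brings SLC16A1 to the cell surface, was at 1074 and 1078 RPKM. Of 16 genes of glucose use and lactate handling, 12 had a row and 11 a mean of at least 1 RPKM. Of these, 6 were higher in replicate 2 and 5 in replicate 1, and the median log2 ratio was 0.01. Of the 11 only GYS1, from 2 and 9 reads, differed at least 2-fold, where 10.6% of all genes with such a mean did. HK1, which traps glucose in the cell, was at 1371 and 1062 RPKM, and LDHA, which makes lactate, at 2.55 and 2.71 RPKM from 2 reads in each library. LDHB of the same list was at 70.0 and 67.0 RPKM, from 670 and 603 reads.

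Of the peptide carriers, SLC15A1, known for the uptake of dipeptides and tripeptides in the intestine, was at 241.5 and 291 RPKM in replicates 1 and 2. The interval of its ratio, 0.99972 to 1.45, touches 1. SLC15A2, its relative of higher affinity, was listed at 0. SLCO2A1, which clears prostaglandins from the extracellular space, was at 202 and 155 RPKM, with a ratio of 0.767 (0.611 to 0.960).

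Metal carriers with a row were low. SLC40A1, or ferroportin, the exporter of iron, was at 2.08 and 0.554 RPKM in replicates 1 and 2, from 4 reads and 1 read. SLC39A14, which imports zinc, iron and manganese, was at 2.40 and 1.98 RPKM, from 9 and 7 reads. Neither difference exceeded counting error. Of the genes of iron handling outside the carriers, 3 were well above them. TFRC, the receptor through which cells take up transferrin-bound iron, was at 21549 and 21851 RPKM, and transferrin (TF) at 1481 and 2704 RPKM. ACP5, known in the pig as uteroferrin, a secreted iron-binding glycoprotein of the uterine glands, was at 233 and 356 RPKM. The other iron genes of the list with a row were low or at 0, with HEPH at 5.85 and 2.07 RPKM, STEAP3 at 0.340 and 0.542 RPKM, HAMP and CP at 1 read in replicate 1 and listed at 0 in replicate 2, and FTL and FTH1 listed at 0 in both.

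The metal-binding metallothionein MT1A was at 448 and 4933 RPKM in replicates 1 and 2, a ratio of 11.0 (interval 9.96 to 12.2). No carrier came near this ratio. The zinc carrier SLC30A4, which is not one of the 44, was at 75.2 and 84.2 RPKM. In the list of 14 genes of iron and zinc handling, 12 had a row and 7 a mean of at least 1 RPKM, of which 6 were higher in replicate 2 and 1 in replicate 1. Their median log2 ratio was 0.61. At least 2-fold apart were MT1A and HEPH, a ferroxidase that works with SLC40A1, with 9 reads in replicate 1 and 3 in replicate 2. Of all genes with a mean of at least 1 RPKM, 10.6% were at least 2-fold apart. The erythrocyte marker HBB was at 3549 and 8431 RPKM, with ALAS2 listed at 0, and its part in the differences between the libraries was not tested.

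SLC29A1, which lets nucleosides pass the membrane, was the nucleoside carrier examined. It was at 2.84 and 5.51 RPKM in replicates 1 and 2. Its reads, 4 and 11, gave a ratio of 2.92 with an interval of 0.866 to 12.6, so the difference was within counting error. SLC5A6, which takes up biotin and pantothenate with sodium, was listed at 0 in replicate 1 and had 1 read in replicate 2.

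Of the ion carriers, SLC26A4, or pendrin, exchanges chloride for bicarbonate and iodide. It was at 1672 and 922 RPKM in replicates 1 and 2, from 3208 and 1664 reads, and was second in both libraries. It was higher in replicate 1, with a ratio of 0.551 (interval 0.519 to 0.585). SLC12A2, which loads chloride into secretory epithelia with sodium and potassium, was at 6.35 and 10.7 RPKM, from 12 and 19 reads. SLC34A2, a sodium-coupled phosphate carrier, was at 1.36 and 0.962 RPKM, and the bicarbonate carrier SLC4A4 was listed at 0. The chloride channel CFTR was at 676 and 2087 RPKM. CFTR was thus higher in replicate 2, with a ratio of 3.09 (2.86 to 3.34), while SLC26A4 was higher in replicate 1. Of 15 genes of the sodium pump, channels and aquaporins, 12 had a row and 9 a mean of at least 1 RPKM. Of the 9, CFTR and AQP5, the latter from 2 and 8 reads, were at least 2-fold higher in replicate 2. Of all genes with such a mean, 7.48% were. The median log2 ratio of the 9 was 0.10.

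The order of the carriers by level was partly open to the spread between the pigs. Of the 20 pairs of neighbours in the order of the 21 carriers that averaged 1 RPKM or more, 13 had ranges over the libraries that overlapped. The 7 whose ranges did not overlap were SLC38A1 and SLC26A4, SLC26A4 and SLC1A1, SLCO2A1 and SLC16A1, SLC38A2 and SLC2A2, SLC2A2 and SLC12A2, SLC12A2 and SLC29A1, and SLC16A7 and SLC7A8. Such ranges do not cover counting error. SLC16A7 and SLC7A8 had the same reads, 4 in replicate 1 and 5 in replicate 2. Their RPKM values differed only because these were divided by 285 nt and 444 nt. SLC1A1 and SLC5A1 exchanged the third and the fourth place between the libraries. From SLC1A3 to SLCO2A1 and again among SLC16A1, SLC7A2 and SLC38A2 the ranges of neighbours overlapped. Within each library, SLC15A1 was still above SLC1A5, and SLC1A5 above SLC7A1. The other neighbours in these stretches changed places between the libraries.

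The order also depended on the length by which the reads were divided. The smallest length at which the RPKM values of both libraries give whole reads was taken for each row, and the true length is this or a whole multiple of it. For the highest rows of the 21 carriers it ran from 93 to 503 nt, with a median of 257 nt, and was under 300 nt for 15 of them. Carriers of this kind are large membrane proteins, and a transcript that codes for them is longer than this. SLC38A1 had the smallest length, 93 nt. In reads per 1000000, with no division by length, SLC26A4 came first in both libraries with 429.6 and 237. SLC38A1, at 173 and 192, took the fourth place in replicate 1 and the third in replicate 2. SLC1A1 was second in the mean, at 201 and 204 reads per 1000000. By the mean, SLC16A1 moved from the tenth to the seventh place and SLC15A1 from the sixth to the tenth. The same 12 carriers were above SLC2A2 on both scales.

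**Figure D3:**
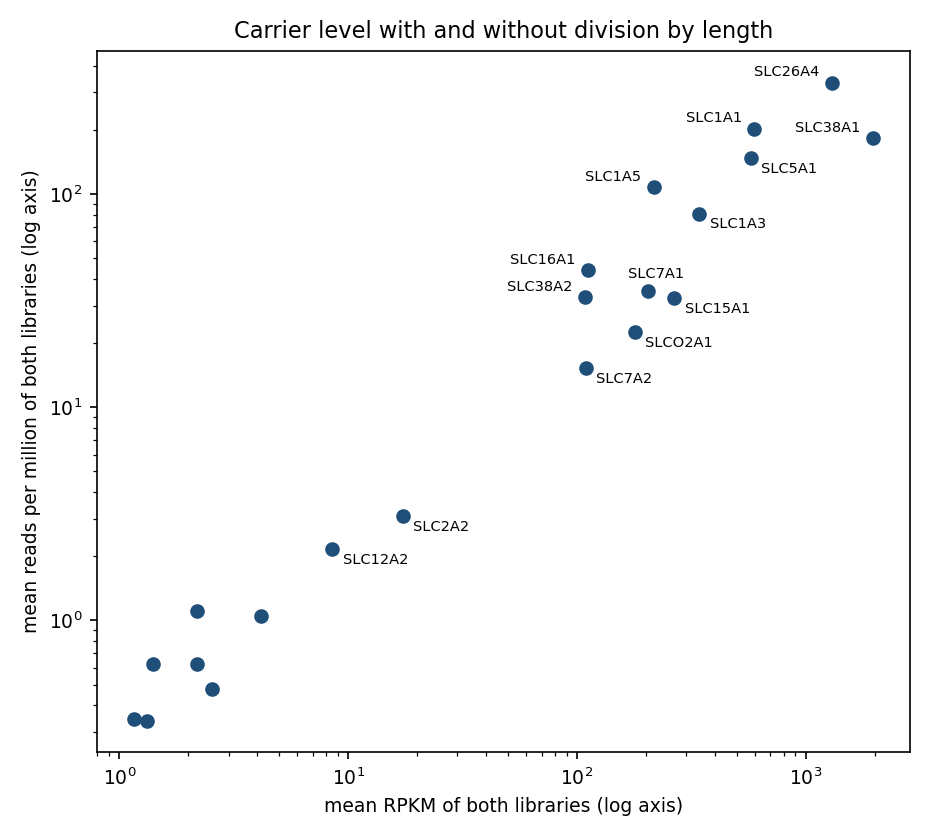
Mean RPKM of both YK18 libraries against mean reads per 1000000 for the 21 carriers with a mean of at least 1 RPKM, both on log axes, with 1 point per gene and the 14 highest named. SLC38A1 has the highest RPKM, SLC26A4 has the most reads, and the same 12 genes lie apart from the others at the upper right on both axes.

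The number of rows of a gene went along with its level. Of the 22 carriers with 1 row, 11 were at 50 RPKM or more in both libraries, against 1 of the 9 with several rows, SLC1A5. Over all genes, 35.9% of the 8226 with 1 row and 4.97% of the 2837 with several rows reached this level. How reads shared between the rows of a gene were counted is not given in the sources used here. SLC2A8, SLC5A6, SLC7A7, SLC12A2, SLC29A1, SLC34A2, SLC39A14 and SLC1A2 are the carriers with several rows that stayed under 50 RPKM.

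Between the pigs, the carriers as a group did not lean to either library. Of the 21 with a mean of at least 1 RPKM, 10 were higher in replicate 2 and 11 in replicate 1, and their median ratio on the scale log2(RPKM + 1), as replicate 2 minus replicate 1, was -0.03, with 0.07 over all 6474 genes with such a mean. The single ratios ran from -1.22 to 1.04. Without regard to sign the median was 0.47 for the carriers and 0.27 for all genes. At least 2-fold apart were 2 carriers, 9.52%, where 10.6% of all genes were. SLC7A2 was 2-fold higher in replicate 2, as were 7.48% of all genes, and SLC5A1 in replicate 1, as were 3.17%. SLC7A2, at a log2 ratio of 1.04, was just past this limit, and its interval of 1.55 to 2.78 holds values under 2. SLC40A1, at -0.99, was just short of it, on 5 reads in all. Among genes with a mean of at least 20 reads the share at least 2-fold apart was 4.78%, and it was 15.4% for the 13 carriers among them, that is, the same 2 genes.

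The counting interval of the ratio lay wholly above or below 1 for 8 of the 21 carriers, 38.1%, and for 31% of all genes. The 8 were all among the 12 at 50 RPKM or more. SLC38A1, SLC1A5, SLC7A1 and SLC7A2 were higher in replicate 2. With the 75th percentiles of the libraries made equal, an alternative added after seeing the data, the interval of SLC38A1 became 0.988 to 1.15 and held 1, and 7 carriers remained. SLC5A1, SLC26A4, SLC1A3 and SLCO2A1 were higher in replicate 1. SLC1A1, SLC38A2, SLC16A1 and SLC15A1 had intervals that hold 1. For the 9 lower carriers, with 1 to 27 reads in a library, no difference was detectable at this depth. Such an interval compares these libraries and does not hold the spread between pigs of 1 condition, which 2 pigs give only roughly.

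**Figure D4:**
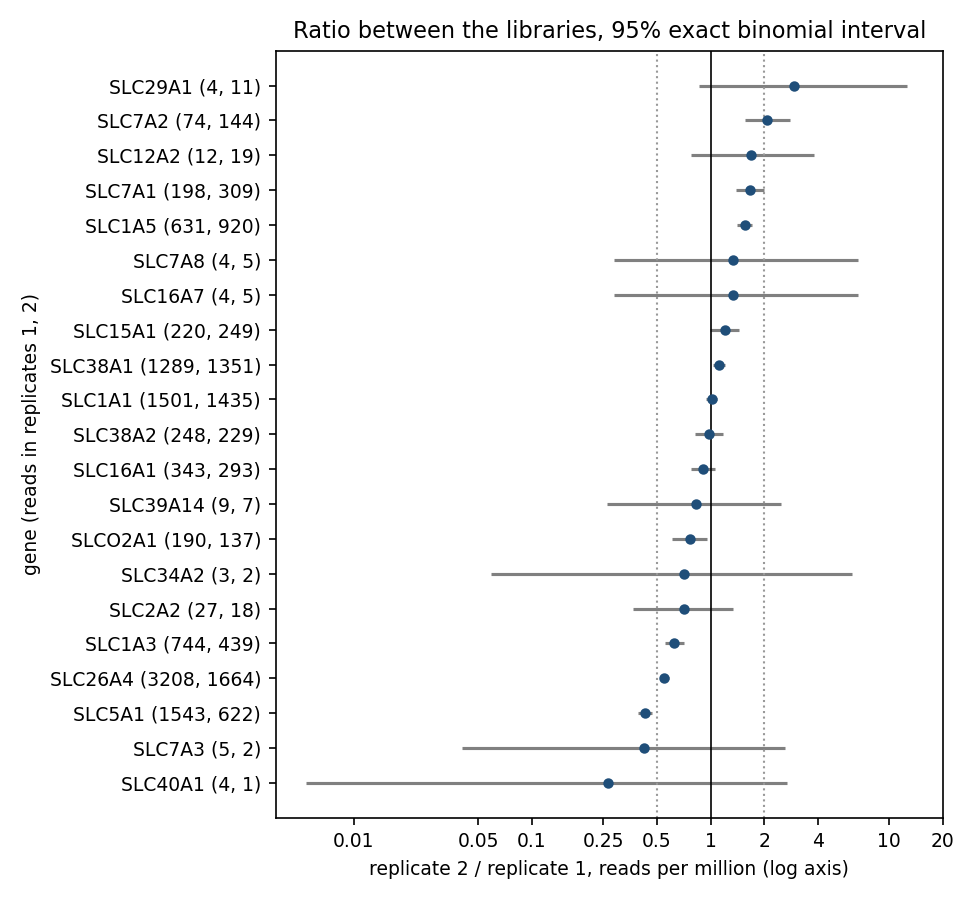
Ratio of YK18 replicate 2 to replicate 1 in reads per 1000000, on a log axis, for the 21 carriers with a mean of at least 1 RPKM, with bars for the 95% exact binomial confidence interval, which covers counting error only, and dotted lines at 2-fold. The reads of replicates 1 and 2 stand beside each name, the lowest well-measured ratio is that of SLC5A1 at 0.429, and bars are widest where a library has 1 to 5 reads.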

How the data were processed

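RNA-seq libraries of YK18 endometrium from 2 pigs were analysed. The deposited table has 43699 rows and holds, for each library, RPKM values that the authors computed from HTSeq counts. The aligner, genome build and treatment of shared reads are not given in the sources used here, and no coordinates are printed. The 44 genes, the classes and the other lists were chosen with earlier results of these data known. By the rule for naming, every gene of these lists could be named and no other. Accessions, less their version number, were given symbols through RefSeq (Sscrofa11.1) (16072 of 38222 mRNA rows), and the rows of a symbol were summed, also where they may hold the same reads, as for SLC1A5.

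Library totals and the smallest lengths up to 20000 nt were worked out from the RPKM steps. All rows above 0 (100%) gave whole reads within 1e-05 or a relative error of rounding. Over all rows these reads came to 90.2% and 90.3% of the library totals. The recovery was tested on simulated data. A lost common factor makes reads too few and intervals too wide. Reads from PCR are not independent molecules. Ratios used log2(RPKM + 1) and genes with a mean of at least 1 RPKM. With 1 library per pig there was no test and no count model. Exact binomial (Clopper-Pearson) intervals were set at 95%. Alternatives covered the pseudocount, filter, scaling, rows, accession match, length and replicate. Python 3.11.15, pandas 2.3.3, numpy 2.4.6, scipy 1.17.1 and matplotlib 3.10.9 were used.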

Additional observations from a re-analysis of the deposited data

How the results depend on the processing

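No paired analysis was possible because both libraries are of 1 condition. Division by RefSeq transcript lengths was not run, because the annotation used here gives no transcript lengths. The 19 carriers at 1 RPKM or more in both libraries became 10 with only NM rows and 9 with the version number required, since these settings leave rows for 17 and 16 carriers. They became 18 with the highest row in place of the sum and 20 to 21 when each replicate was left out. With the RPKM of a library made to sum to 1000000 they became 14, and in reads per 1000000 also 14. The 2 carriers at least 2-fold apart became 4 with a pseudocount of 0.1 and 4 with 0.01, where SLC7A3 and SLC40A1, with 1 to 5 reads, were added, and 1 in reads per 1000000, where SLC7A2 was at a log2 ratio of 0.98. With the 75th percentiles made equal SLC7A2 was at 0.98 as well and SLC40A1 passed the limit in its place. The count was 3 with the highest row in place of the sum, where SLC29A1 at 1.21 was added. It was also 3 with no filter on low values, where SLC5A6 was added. SLC5A1 stayed past the limit, from -1.28 to -1.21, in each alternative for the log2 ratio. The median level, 108.7 RPKM, was 25.4 with the RPKM of a library made to sum to 1000000, 191.7 with only NM rows, 178.4 with the version number required and 18.8 in reads per 1000000, and ran from 71.3 to 106.7 without a replicate. Rescaling and reads per 1000000 change the unit. Of the 66 pairs of classes, 39 kept their order with only NM rows, 39 with the version number required, 60 in reads per 1000000 and 64 without either replicate. The median log2 ratio stayed between -0.26 and 0.00. Of all genes, 689 of 6474 were at least 2-fold apart, 952 at a pseudocount of 0.1, 357 of 5107 that averaged 5 RPKM or more and 214 of 4480 with a mean of at least 20 reads. The filter at a mean of 20 reads was chosen after seeing the data and left 2 carriers at least 2-fold apart. The spread between pigs rests on 2 animals, and carriers with under 20 reads have ratios of low precision.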

Other observations

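The rows of a carrier with several rows did not always carry the same share of its level. SLC1A5 had 2 rows of nearly equal level, at 85.9 and 83.7 RPKM in replicate 1 and at 130.04 and 132.7 RPKM in replicate 2. Whether the rows hold the same reads was not tested. Both rows were higher in replicate 2. For SLC29A1, 3 of 5 rows were above 0 in either library. The row at 0.924 RPKM in replicate 1 was at 3.44 RPKM in replicate 2, the row at 0.487 RPKM was at 2.07 RPKM, and the row at 1.42 RPKM, from 1 read, was listed at 0 in replicate 2. For SLC39A14 both rows were close, at 1.33 and 1.06 RPKM in replicate 1. SLC34A2 and SLC12A2 each had 1 of 2 rows above 0.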
